A study of Mus musculus with 6 samples.

Results

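The 43 genes described here encode the enzymes that break glucose down to lactate, the transporters that carry glucose and lactate across the membrane, and the factors, sensors and targets of the response to low oxygen. They were listed by name as 17 glycolytic enzymes, 4 glucose and lactate transporters, 5 PFKFB and PDK regulators, 6 HIF factors and oxygen sensors and 11 HIF targets. All 43 matched an identifier among the 46983 of the deposited count table, and all 43 passed the filter on low counts that left 16115 genes. RNA came from macrophages derived from femoral bone marrow of wild-type (WT) C57BL/6 mice and C57BL/6 mice with a knockout of AEG-1 (AEG-1 KO), with 3 libraries per genotype. The name stands for astrocyte elevated gene-1, whose gene symbol is Mtdh. The marrow of both genotypes was grown for 7 days with 20% L929 conditioned medium, a source of the macrophage growth factor CSF1, and 10% heat-inactivated serum, and neither group was treated. The sources used here do not give the age or sex of the mice, the deleted part of the gene or the oxygen level of the cultures. They also do not say whether libraries came from separate animals or cultures, so p-values measure only how much these libraries vary, which may be a technical spread.

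Glycolysis turns glucose into pyruvate in the cytosol. Hexokinase traps glucose, phosphofructokinase commits it to the pathway, PFKFB enzymes set the level of the metabolite that activates phosphofructokinase, and PDK enzymes inhibit the mitochondrial complex that oxidises pyruvate. HIF transcription factors pair an oxygen-regulated alpha subunit with Arnt. When oxygen is plentiful, prolyl hydroxylases of the Egln family mark the alpha subunit, and Vhl leads it to degradation; when oxygen is low the subunit persists and activates genes with a hypoxia response element. Many glycolytic genes are themselves HIF targets, so the enzyme and target groups divide the genes by what the products do. Macrophages are known to lean on glycolysis when bacterial products activate them.

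The libraries held 42548170 to 58947230 counts in all, and levels are given as CPM, read counts scaled to library size with TMM factors. Mtdh had 11560 to 14849 reads in the WT libraries and 15 to 22 in the AEG-1 KO libraries, which checks the labels. None of the 10 defining macrophage markers was below 83.8 CPM in any library, and their sum was 18301 to 18695 CPM in WT against 18769 to 19343 CPM in AEG-1 KO. Markers of other cells were at lower levels, and their sums, like that of the macrophage markers, differed between the groups. The sum of 12 monocyte and progenitor markers was 57 to 61 CPM in WT against 85.2 to 88.5 CPM in AEG-1 KO, that of 10 neutrophil markers 416 to 422 and 463 to 507 CPM, and that of 10 fibroblast, stromal and endothelial markers 7.92 to 9.02 and 12.6 to 14.4 CPM. The sum of 8 lymphoid and erythroid markers was 1.3 to 1.55 and 2.08 to 2.14 CPM. The part of these cells in the results below was not tested, and in bulk RNA fewer cells of a type and less RNA per cell cannot be told apart.

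In AEG-1 KO, 5 members fell and 1 rose. Ndrg1, a stress- and hypoxia-induced gene, fell to 54.7% of its WT level, followed by Egln3, an oxygen sensor (72.3%), Hk2, the inducible hexokinase (80.6%), Pfkfb3, which makes an activator of phosphofructokinase (85.5%), and Pfkp, the platelet-type phosphofructokinase (86.7%). Slc16a1, the lactate and pyruvate transporter MCT1, rose to 120.1% of WT. The other 37 members did not pass the test, and 22 of the 43 estimates lay below 0 and 21 above. In the edgeR quasi-likelihood fit across all genes, 6 of 43 members (14%) had a Benjamini-Hochberg adjusted p under 0.05, against 6.35% of all genes tested. By direction, 5 of 43 (11.6%) were lower against a background of 3.04%, and 1 of 43 (2.33%) was higher against 3.31%. The libraries of the 2 genotypes did not overlap in 13 members (30.2%), against 26.8% of all genes tested. The median log2 fold change of the members was -0.02, beside 0.01 over all genes tested. Members were chosen with earlier results of these data known, so setting these shares beside all genes is a description without a test.

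**Figure D1:**
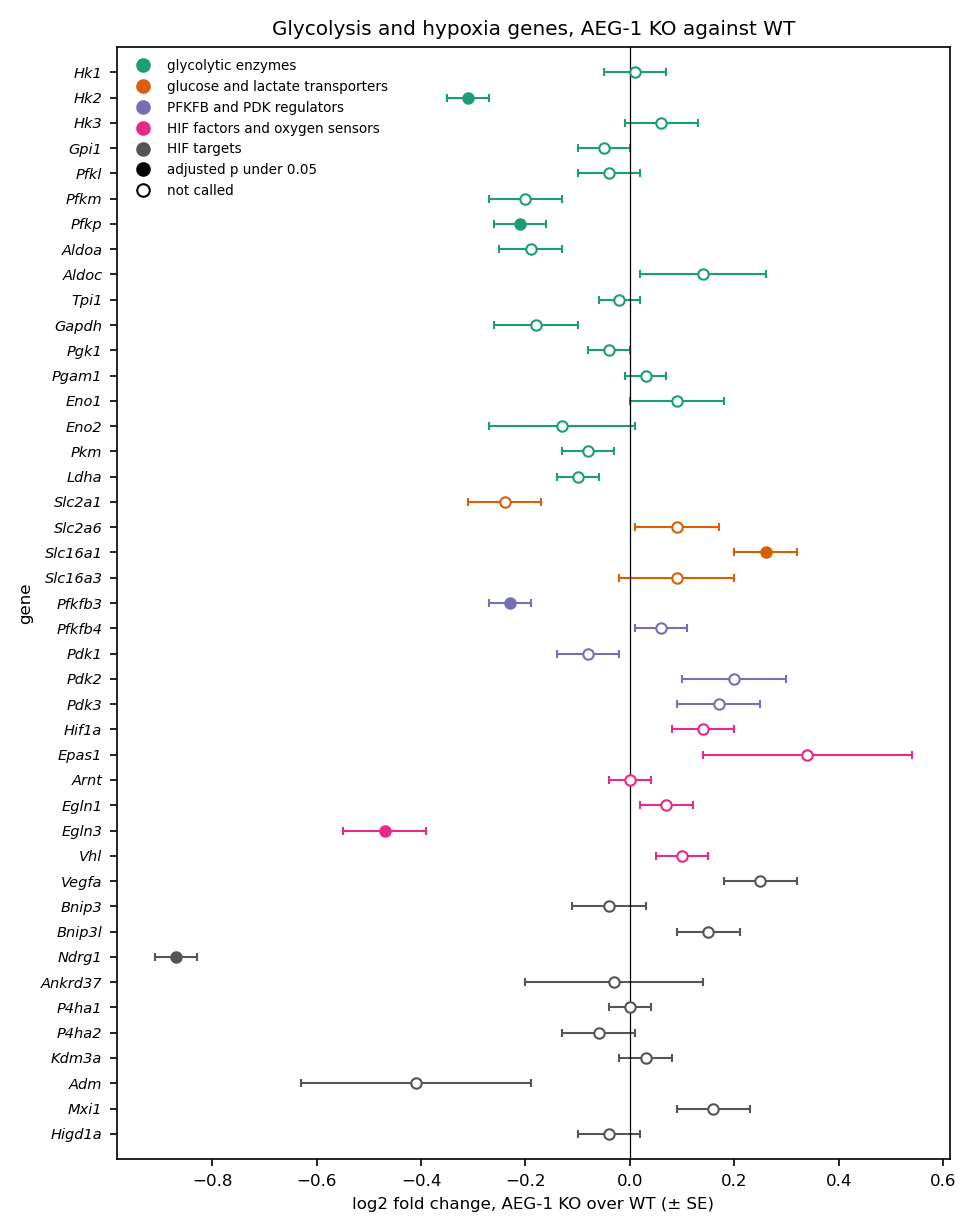
Log2 fold change of AEG-1 KO over WT (x axis, with its SE as the bar) for each of the 43 genes (y axis), coloured by role, with filled points at an adjusted p under 0.05. Ndrg1 at -0.87 lies farthest left of the 6 filled points, and Slc16a1 at 0.26 is the filled point on the right.

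Among the 17 glycolytic enzymes, 2 fell, none rose and the remaining 15 did not pass. Hk2 binds mitochondria and is the hexokinase that growth factors and HIF induce. It stood at 164, 166 and 157 CPM in WT replicates 1 to 3 and at 132, 129 and 131 CPM in AEG-1 KO replicates 1 to 3. Every AEG-1 KO library was below every WT library, and the log2 fold change was -0.31 ± 0.04 (SE; edgeR adjusted p = 0.00261). The gene lies on GRCm38 chromosome 6, from 82725025 to 82774454. Hk1, the constitutive hexokinase, was at 113 ± 7.96 CPM in the WT libraries and 114 ± 5.33 CPM in those of AEG-1 KO (SD, n = 3). Hk3, the hexokinase of myeloid cells, was at 393 ± 32.3 and 409.6 ± 32.3 CPM, and neither of these passed (edgeR adjusted p = 0.95 and 0.691).

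Pfkp encodes one of 3 phosphofructokinase subunits. Its level was 93.2, 98.5 and 99.6 CPM in the WT libraries and 86.8, 83.5 and 82.1 CPM in the AEG-1 KO libraries. The groups did not overlap, though the gap between the lowest WT and the highest AEG-1 KO library was small, and the log2 fold change was -0.21 ± 0.05 (SE; edgeR adjusted p = 0.0321). The gene lies on GRCm38 chromosome 13, from 6579768 to 6648777, and 748 bases of its exons overlap those of Pitrm1 on the other strand. Pitrm1 moved the same way, from 74.9 ± 3.09 to 63.7 ± 4.26 CPM, with an adjusted p of 0.048 from edgeR. The sources used here do not say whether counting used the strand, so reads of the shared stretch cannot be assigned to one of them. The same holds for Hk1, Hk3, Gpi1, Pfkm, Aldoa, Tpi1, Gapdh, Slc2a1, Hif1a, Ankrd37 and Mxi1, whose exons also overlap a gene on the other strand. The liver-type subunit Pfkl was at 102 ± 8.22 CPM in WT against 99.6 ± 3.85 CPM in AEG-1 KO. The muscle-type subunit Pfkm was at 15.9 ± 0.978 and 13.9 ± 0.68 CPM without overlap between the groups (-0.20 ± 0.07 in log2, SE; edgeR adjusted p = 0.145).

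The other enzymes of the chain had estimates on both sides of WT, most of them below it, and none passed. Aldoa, the main aldolase, was at 1050.2, 1072 and 938 CPM in WT and at 887, 867 and 930.4 CPM in AEG-1 KO. Its groups lay next to each other without overlap, and the difference of -0.19 ± 0.06 (log2, SE) did not pass (edgeR adjusted p = 0.0824). Ldha, which reduces pyruvate to lactate, was at 460.1, 504 and 469.7 CPM in WT and at 445, 446 and 446 CPM in AEG-1 KO (-0.10 ± 0.04 in log2, SE; edgeR adjusted p = 0.223). The AEG-1 KO libraries were nearly equal and below all WT libraries. Pkm, the last enzyme of the pathway, had the highest CPM of the members, 1881 ± 127 in WT and 1779 ± 39.9 in AEG-1 KO. Tpi1, Pgk1, Pgam1, Gpi1 and Eno1, which carry the middle steps, had estimates between -0.05 and 0.09 on the log2 scale and adjusted p between 0.632 and 0.822. Aldoc and Eno2, the aldolase and enolase best known from brain, were at 3.24 to 5.02 CPM in every library, with log2 fold changes of 0.14 ± 0.12 and -0.13 ± 0.14 (SE).

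Gapdh was listed at only 11.2 ± 0.548 CPM in WT against 9.91 ± 0.846 CPM in AEG-1 KO, far under its neighbours in the pathway. A search of the transcripts found 137 other genes, 134 of them pseudogenes, with a stretch of at least 100 bases at 95% identity or more to Gapdh. Those genes together held 424 ± 39.1 CPM in WT against 361 ± 11.3 CPM in AEG-1 KO. Gapdh and these genes summed to 441, 472 and 393 CPM in the WT libraries and 373, 358 and 382 CPM in the AEG-1 KO libraries, so that neither the level of Gapdh nor its change can be read from its own row. Eno1 was in the same position, at 84.7 ± 10.9 CPM in WT while 3 near-identical genes held 458 CPM, most of it in the pseudogene Gm4735. With these copies included, Eno1 stood at 542 ± 30.1 CPM in WT against 540.2 ± 11.3 CPM in AEG-1 KO. For Gpi1 the genes found this way held 91.9% of the gene's own WT level, for Bnip3l 50.9%, for Pgk1 34.6% and for Bnip3 20.9%. Most of the Gpi1 part lay in the pseudogene Gm1840, at 204 CPM in WT. Altogether 13 members had such a match, and none of the 6 members that changed was among them. A match can be a shared stretch only. Mrpl27, found for Gpi1, and Peli2, found for Gapdh, are annotated as protein-coding genes. Gm26513, found for Pfkm, overlaps 341 bases of the exons of Pfkm on the same strand.

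**Figure D2:**
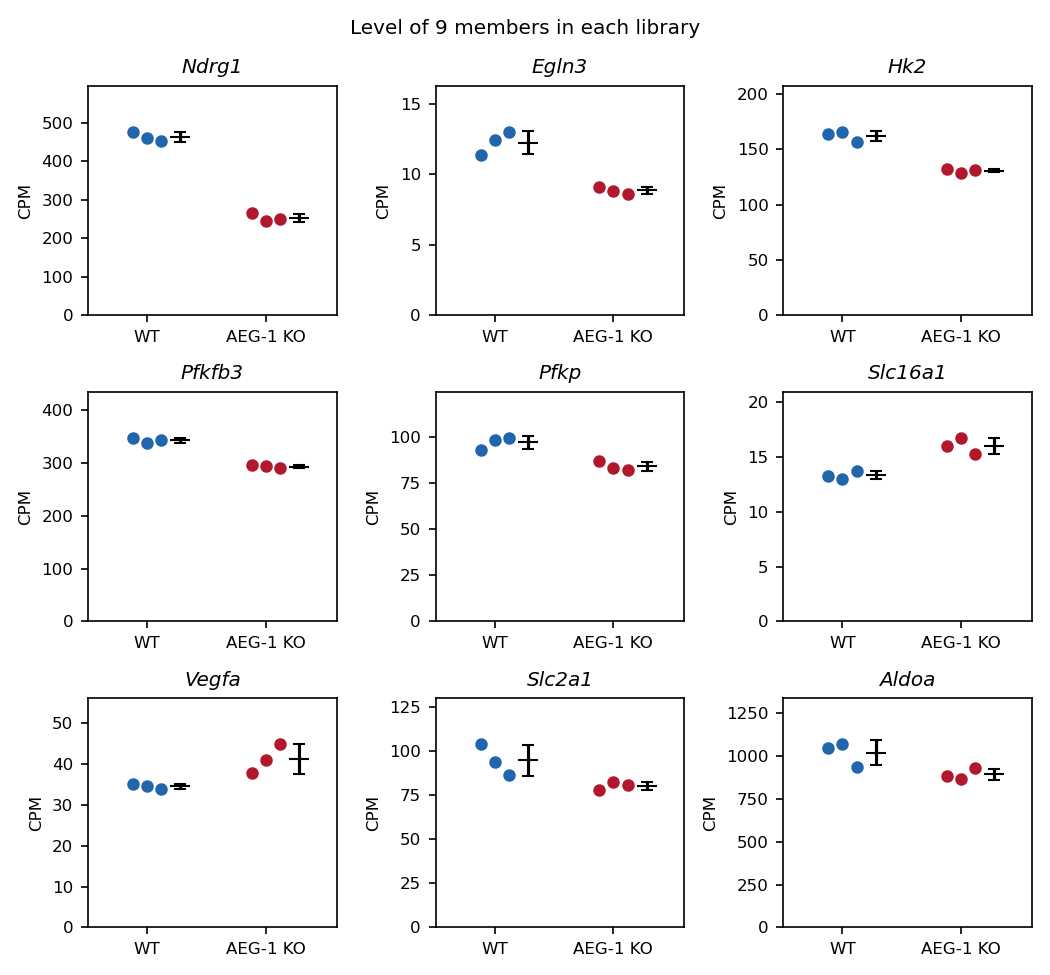
CPM (y axis, from 0) of 9 genes in each of the 3 WT (blue) and 3 AEG-1 KO (red) libraries, with the group mean and SD in black. The first 6 panels are the genes that passed the test, and Vegfa, Slc2a1 and Aldoa in the last row had adjusted p of 0.0537, 0.0695 and 0.0824.

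Levels of different genes were compared per kb of exon (RPKM, the CPM divided by the length of all annotated exons joined). Per length, Hk3 was the main hexokinase message of these macrophages, at 107 ± 8.78 RPKM in WT, ahead of Hk2 at 27.2 ± 0.779 and Hk1 at 13.3 ± 0.933 (SD, n = 3). Hk2 made up 17.7, 18.4 and 19.4% of the summed hexokinase level in the WT libraries and 15.9, 15.1 and 14% in the AEG-1 KO libraries. All AEG-1 KO shares were lower than all WT shares. The sum over the 3 hexokinases was 147 ± 10.3 RPKM in WT and 146 ± 9.3 RPKM in AEG-1 KO. Among phosphofructokinase subunits, Pfkl led at 15.3 ± 1.23 RPKM in WT, followed by Pfkp at 7.24 ± 0.255 and Pfkm at 4.75 ± 0.293. This order rests on joined exon lengths of 6.67 kb for Pfkl, 13.4 kb for Pfkp and 3.34 kb for Pfkm. In CPM, Pfkl and Pfkp were close in WT, at 102 and 97.1. The share of Pfkp in that sum was 24.8 to 28.6% in WT and 23.8 to 26.3% in AEG-1 KO, with overlap between the groups. These shares, and those per length given below, are descriptions without a test. They depend on the annotated exons, and which of these the cells used was not tested.

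**Figure D3:**
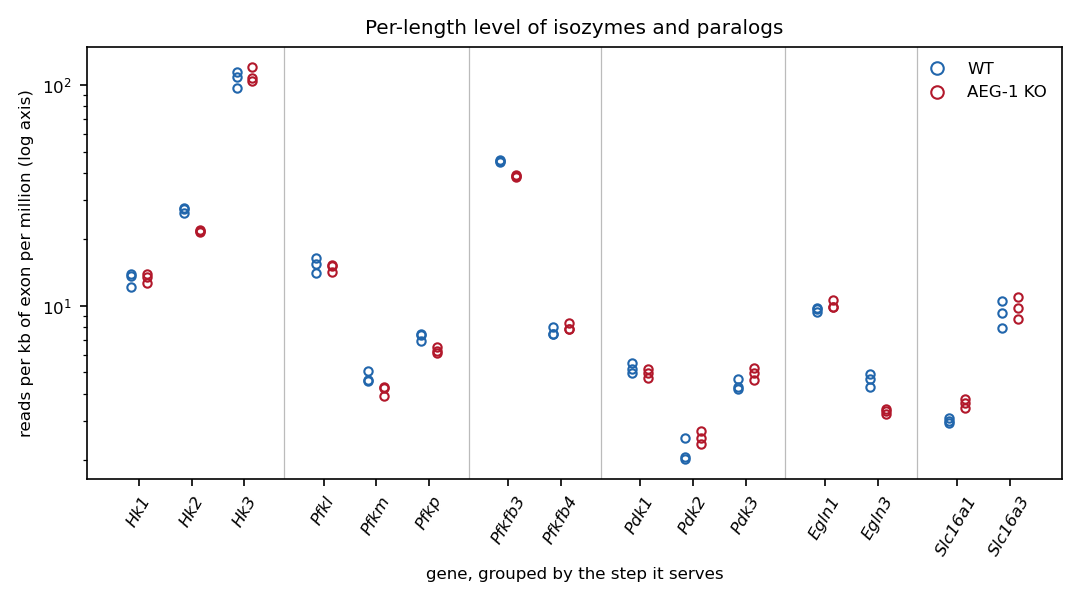
Level per kb of exon (y axis, log scale) of isozymes and paralogs in each WT (blue) and AEG-1 KO (red) library, with vertical lines between the steps they serve. Hk3 lies at 97 to 121 RPKM above the other hexokinases. The red points of Hk2, Pfkm, Pfkp, Pfkfb3 and Egln3 lie under the blue ones, and those of Slc16a1 and Egln1 above them.

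Among the 4 transporters 1 rose, and the other 3 did not pass. Slc16a1, on GRCm38 chromosome 3 from 104638668 to 104658462, was at 13.3, 13 and 13.7 CPM in WT and at 16, 16.8 and 15.3 CPM in AEG-1 KO. Its groups did not overlap, and the log2 fold change was 0.26 ± 0.06 (SE; edgeR adjusted p = 0.0429). Leaving out any 1 library ended this call, with adjusted p from 0.0518 to 0.203. Slc16a3, the lactate exporter MCT4, was the more abundant of the pair per length, at 9.26 ± 1.29 RPKM in WT against 3.02 ± 0.0826 for Slc16a1. Its CPM ran from 42.4 to 56.1 in WT and from 46.2 to 58.3 in AEG-1 KO, and the groups overlapped (edgeR adjusted p = 0.711). Slc2a1, the glucose transporter GLUT1, was at 104, 94 and 86.5 CPM in WT and at 78.1, 82.8 and 80.7 CPM in AEG-1 KO. Every AEG-1 KO value lay below every WT value, and the log2 fold change of -0.24 ± 0.07 (SE) did not pass (edgeR adjusted p = 0.0695). Slc2a6, a lysosomal hexose transporter, was at 20.4 ± 2.04 and 21.7 ± 0.998 CPM, and the share of Slc2a1 in the sum of both per length was 80.7 to 81.3% in WT and 76.9 to 77.7% in AEG-1 KO.

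Among the 5 regulators, Pfkfb3 fell and the other 4 did not pass the test. Pfkfb3 makes the sugar bisphosphate that activates phosphofructokinase, which speeds glycolysis. It was at 348, 338 and 344 CPM in WT and at 296, 294 and 291 CPM in AEG-1 KO. Both groups were tight and clearly apart, with a log2 fold change of -0.23 ± 0.04 (SE; edgeR adjusted p = 0.00717). The gene lies on GRCm38 chromosome 2, from 11471433 to 11554077. Without AEG-1 KO replicate 2 its adjusted p was 0.0507. Pfkfb4, its paralog, was at 37.3 ± 1.5 CPM in WT against 39 ± 1.38 CPM in AEG-1 KO (edgeR adjusted p = 0.54), and per length Pfkfb3 held 84.8 to 86% of the pair in WT and 82.5 to 83.2% in AEG-1 KO. The mitochondrial kinases Pdk1, Pdk2 and Pdk3 had log2 fold changes of -0.08 ± 0.06, 0.20 ± 0.10 and 0.17 ± 0.08 (SE), with adjusted p from 0.24 to 0.502. Per length, Pdk1 held 43.6 to 45% of their sum in WT and 39.2 to 41% in AEG-1 KO.

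Of the 6 HIF factors and oxygen sensors, Egln3 fell and the other 5 did not pass. Egln3, also called PHD3, is a prolyl hydroxylase that HIF itself induces. Its level was 11.4, 12.4 and 13 CPM in WT and 9.12, 8.85 and 8.64 CPM in AEG-1 KO. The groups were separate, and the log2 fold change was -0.47 ± 0.08 (SE; edgeR adjusted p = 0.00689). It lies on GRCm38 chromosome 12, from 54178981 to 54203860. Egln1, the main oxygen sensor of most cells, was at 34.5 ± 0.741 CPM in WT against 36.3 ± 1.59 CPM in AEG-1 KO (edgeR adjusted p = 0.477). Per length, Egln3 made up 30.4 to 34.3% of the pair in WT and 23.4 to 25.8% in AEG-1 KO. This pair leaves out Egln2, the third gene of the family and no member, named after its values were seen. In CPM Egln2 was above both, at 98.7 ± 21.5 in WT and 82.4 ± 7.64 in AEG-1 KO (SD), so these are not shares of the whole family.

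Hif1a, the oxygen-regulated subunit, was at 190.4, 175 and 198 CPM in WT and at 210.4, 217 and 193 CPM in AEG-1 KO. The highest WT library exceeded the lowest AEG-1 KO library, and the log2 fold change of 0.14 ± 0.06 (SE) did not pass (edgeR adjusted p = 0.22). Epas1, which encodes the related HIF2A subunit, was scarce at 0.786 to 1.19 CPM in WT against 1.07 to 1.36 CPM in AEG-1 KO. Per length, Hif1a held 99.3 to 99.6% of the 2 alpha subunits in every library. The partner Arnt was at 94.9 ± 1.06 and 95.2 ± 1.74 CPM, a log2 fold change of 0.00 ± 0.04 (SE). Vhl, the ligase subunit that removes the alpha subunit, was at 36.7, 37.2 and 36.1 CPM in WT and at 38.9, 39.5 and 39.5 CPM in AEG-1 KO, apart but without passing (edgeR adjusted p = 0.241). HIF activity depends on the stability of the protein, which these RNA counts do not measure.

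Of the 11 HIF targets, none rose, 1 fell and 10 did not pass. Ndrg1, which has roles in differentiation and in trafficking of membrane proteins, was at 477, 459.9 and 452 CPM in WT and at 265, 244 and 250.3 CPM in AEG-1 KO. The 2 groups lay far apart beside their spread, an SD of 12.7 CPM in WT and of 10.6 in AEG-1 KO (n = 3). The log2 fold change was -0.87 ± 0.04 (SE; edgeR adjusted p = 1.28e-05), the largest in size of the 43 members. Ndrg1 lies on GRCm38 chromosome 15, from 66929318 to 66969640, on the same chromosome as Mtdh and 32.8 Mb beyond its end. Its exons overlap those of 2 genes on the other strand, of which Gm17035 had no reads and Gm2895 had at most 0.38 CPM in any library. The only other member on chromosome 15 was Pfkm, 63.9 Mb from Mtdh.

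Vegfa, the angiogenic growth factor and a classic HIF target, did not pass. It was at 35.2, 34.6 and 34 CPM in WT and at 37.9, 41 and 45 CPM in AEG-1 KO. All AEG-1 KO libraries were above all WT libraries, and the log2 fold change of 0.25 ± 0.07 (SE) was just short of the threshold (edgeR adjusted p = 0.0537). The mitophagy receptors Bnip3 and Bnip3l had log2 fold changes of -0.04 ± 0.07 and 0.15 ± 0.06 (SE; edgeR adjusted p = 0.791 and 0.173). P4ha1 and P4ha2, collagen prolyl hydroxylases, were at 161 ± 1.23 and 8.92 ± 0.355 CPM in WT and at 161 ± 4.61 and 8.54 ± 0.366 CPM in AEG-1 KO. Kdm3a, a histone demethylase, Higd1a, a mitochondrial protein, and Mxi1, an antagonist of MYC, had estimates of 0.03, -0.04 and 0.16 in log2 (edgeR adjusted p = 0.774, 0.746 and 0.243). Adm, a vasodilator peptide, and Ankrd37 were at 0.751 to 1.61 CPM in every library, and their log2 fold changes carried SE of 0.22 and 0.17.

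Enzymes and HIF targets were set side by side as 2 groups. The median log2 fold change was -0.05 over the 17 enzymes and -0.03 over the 11 targets, beside 0.01 over all genes tested. Estimates lay below 0 for 12 of 17 enzymes and for 6 of 11 targets. The enzymes include Gapdh (-0.18) and Eno1 (0.09), taken from their own rows, which near-identical genes make unreadable as described above. The enzyme estimates spanned -0.31 to 0.14 and the target estimates the wider range of -0.87 to 0.25. Relative to the WT mean, the median enzyme stood at 0.02, 0.05 and -0.06 (log2) in the WT libraries and at -0.06, -0.10 and -0.03 in the AEG-1 KO libraries, so WT replicate 3 lay within the AEG-1 KO range. The median target stood at -0.01 to 0.01 in WT and at -0.06 to 0.04 in AEG-1 KO. The median transporter ran from -0.14 to 0.14 in WT and from -0.03 to 0.16 in AEG-1 KO. The median of the HIF factors and sensors was 0.06 to 0.07 in the AEG-1 KO libraries and -0.02 to 0.01 in WT. These medians carry no test, because the genes were chosen by name with earlier results of these data known.

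**Figure D4:**
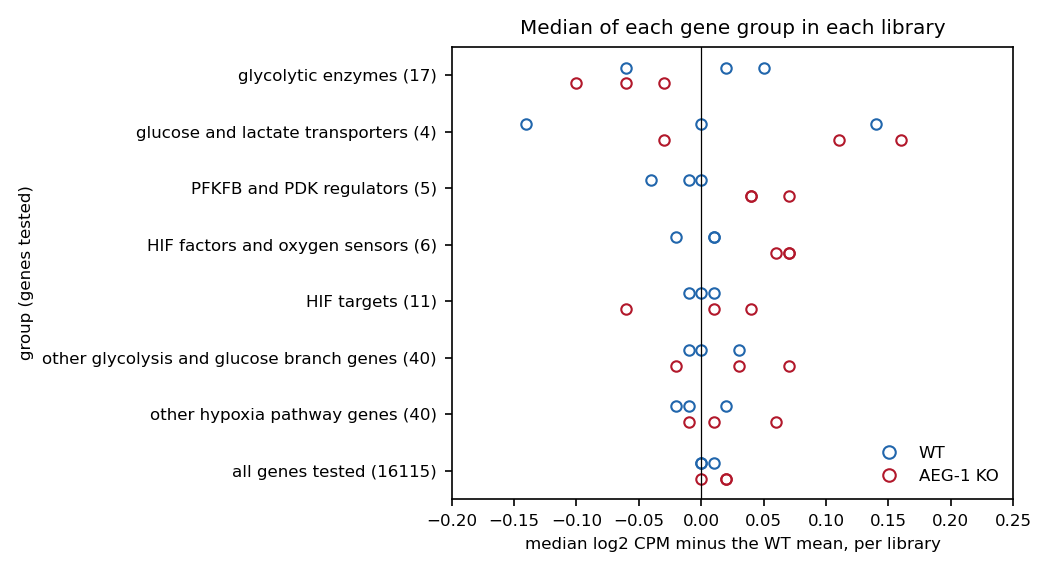
Median over the genes of each group (y axis, genes tested in brackets) of log2 CPM minus the WT mean (x axis), for each WT (blue) and AEG-1 KO (red) library. Enzyme medians lie at -0.10 to -0.03 in AEG-1 KO and at -0.06 to 0.05 in WT, and target medians of the 2 genotypes overlap around 0.

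The bases just upstream of the members that changed are shown because hypoxia response elements carry the core ACGTG or GCGTG, which HIF binds. Windows of 250 bases before the start, from RefSeq on GRCm38.p6, were found for 40 of 43 members. Epas1, Bnip3l and Ndrg1 had no entry. Of these windows 31 (77.5%) held ACGTG or GCGTG on either strand, against 44.9% of the windows of all 16520 genes with one and 56.4% of those of 9775 tested genes. The median share of G and C was 62.6% in member windows and 68.4% in those of the changed members, against 59.6% over tested genes and 56% over all genes with a window. The core was in 11 of 17 enzyme windows and 7 of 9 target windows. Of the 5 changed members with a window all 5 held a core, as did 26 of the 35 members with a window that did not pass. The palindrome CACGTG, which MYC-type factors bind, overlaps the core and counts on both strands. A match is a stretch of letters and not a measured binding site.

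The windows of the 5 changed members follow, 5′ to 3′ along the gene and ending at the base before the start, with matches to ACGTG or GCGTG on either strand in capitals. They lie at chr6:82774455-82774704, minus strand for Hk2, chr13:6648772-6649021, minus strand for Pfkp, chr2:11553930-11554179, minus strand for Pfkfb3, chr12:54203875-54204124, minus strand for Egln3 and chr3:104638414-104638663, plus strand for Slc16a1. For Pfkfb3 the RefSeq start lies 148 bases inside the annotated gene, so the window overlaps the gene's first annotated bases. Pfkp held 3 separate stretches, Hk2 held 2, and Pfkfb3 and Egln3 held 1 each. Slc16a1, the member that rose, held 3, one of them a CACGTG.
Hk2: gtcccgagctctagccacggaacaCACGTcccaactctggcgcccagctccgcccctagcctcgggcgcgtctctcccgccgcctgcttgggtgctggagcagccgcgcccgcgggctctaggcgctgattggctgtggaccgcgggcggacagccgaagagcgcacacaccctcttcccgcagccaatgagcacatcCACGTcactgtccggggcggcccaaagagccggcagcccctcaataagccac
Pfkp: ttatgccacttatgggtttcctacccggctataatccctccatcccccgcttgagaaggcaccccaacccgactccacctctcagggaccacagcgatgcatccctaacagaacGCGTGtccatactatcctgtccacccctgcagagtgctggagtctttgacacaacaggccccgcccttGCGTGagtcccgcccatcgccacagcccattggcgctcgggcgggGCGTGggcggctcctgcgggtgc
Pfkfb3: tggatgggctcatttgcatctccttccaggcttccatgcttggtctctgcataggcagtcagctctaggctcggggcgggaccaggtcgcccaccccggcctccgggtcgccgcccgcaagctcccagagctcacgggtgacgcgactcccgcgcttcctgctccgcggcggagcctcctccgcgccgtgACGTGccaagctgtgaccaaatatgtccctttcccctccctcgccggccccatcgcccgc
Egln3: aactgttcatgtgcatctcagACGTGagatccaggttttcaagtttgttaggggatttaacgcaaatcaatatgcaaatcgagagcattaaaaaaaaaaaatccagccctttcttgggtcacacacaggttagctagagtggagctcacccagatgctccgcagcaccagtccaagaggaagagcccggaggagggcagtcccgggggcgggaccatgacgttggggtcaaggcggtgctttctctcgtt
Slc16a1: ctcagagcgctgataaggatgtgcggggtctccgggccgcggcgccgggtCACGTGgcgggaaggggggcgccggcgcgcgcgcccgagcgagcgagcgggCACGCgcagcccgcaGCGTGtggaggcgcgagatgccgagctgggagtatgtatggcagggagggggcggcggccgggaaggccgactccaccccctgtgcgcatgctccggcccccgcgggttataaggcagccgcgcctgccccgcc

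Further genes of glucose metabolism and of the hypoxia pathway were read from 2 lists of 45 and 42 names. These lists too were chosen with earlier results of these data known, and their shares carry no test. Of 40 tested genes of glycolysis and its branches, 3 rose and none fell. G6pdx, the entry enzyme of the pentose phosphate pathway, stood at 240.2 ± 8.84 CPM in WT against 272 ± 3.01 CPM in AEG-1 KO (SD, n = 3), a rise of 0.18 ± 0.04 (log2, SE; edgeR adjusted p = 0.0371). Galm, which interconverts the forms of sugars, rose by a log2 fold change of 0.27 ± 0.06 (SE; edgeR adjusted p = 0.0358). Emb, a chaperone subunit of monocarboxylate transporters such as MCT1, rose by 0.20 ± 0.05 (SE; edgeR adjusted p = 0.0372). The share of changed genes was 7.5%, against 6.35% of all genes tested, and the median log2 fold change was 0.03.

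Of 40 tested hypoxia pathway genes outside the members, 4 rose and 3 fell, or 17.5% against 6.35% of all genes tested, with a median log2 fold change of 0.00. By direction, 10% rose against 3.31% of all genes, and 7.5% fell against 3.04%. Bhlhe40, a transcriptional repressor that HIF induces, was at 9.94, 10.1 and 8.53 CPM in WT and at 14.2, 15.7 and 16.3 CPM in AEG-1 KO, a rise of 0.69 ± 0.09 (log2, SE; edgeR adjusted p = 0.0019). Angptl4, an inhibitor of lipoprotein lipase, and Loxl2, a matrix cross-linking enzyme, rose as well, by 0.52 and 1.03 (log2), at adjusted p of 0.0163 and 0.0315 from edgeR. Loxl2 was at no more than 1.1 CPM in any library. The summed fibroblast, stromal and endothelial markers were higher in the same AEG-1 KO libraries, and their part in these 4 rises was not tested. Vldlr, a lipoprotein receptor, had a log2 fold change of -0.55 ± 0.07 and Hif3a, an alpha subunit that can oppose the others, one of -0.62 ± 0.13, so that both fell (SE; edgeR adjusted p = 0.00201 and 0.025). Ak4, a mitochondrial adenylate kinase named after its values were seen, fell by 0.49 in log2 (edgeR adjusted p = 0.035). Genes known to be induced by HIF were on both sides, among them Bhlhe40 and Angptl4 higher and Ndrg1, Egln3 and Hk2 lower.

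The 6 calls differed in how far they rested on single libraries and settings. Ndrg1 passed in all 15 other fits made, with log2 fold changes from -0.91 to -0.85. Hk2 and Egln3 passed in each fit that left out 1 library, with adjusted p up to 0.021 and 0.0413. Pfkp kept its call without WT replicate 1 and lost it without any of the others, at adjusted p from 0.0612 to 0.145. Without AEG-1 KO replicate 2, 3 members were called in place of 6, namely Hk2, Egln3 and Ndrg1. Calls over all genes went from 1023 to 380 in that fit. When the dependence on exon length and GC content was removed in each library, 11 members were called, 9 lower and 2 higher. Pfkm, Aldoa, Ldha, Slc2a1 and Vegfa were added. Calls over all 16115 genes tested rose as well with this setting, from 1023 to 2324. Upper-quartile scaling gave 6 lower and none higher, since Slc16a1 lost its call and Slc2a1 gained one. None of the 6 estimates changed sign in any fit.

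**Figure D5:**
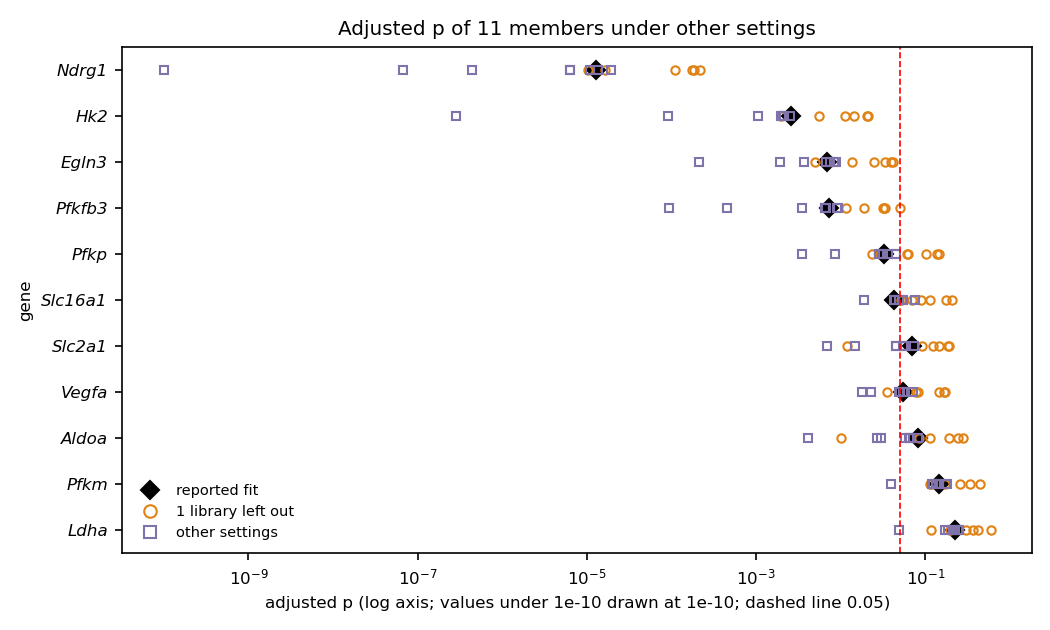
Adjusted p (x axis, log scale, dashed line at 0.05) of the 6 members called and of 5 called only under another setting, in the reported fit (diamond), without 1 library (circles) and under other scalings, filters, tools and the length and GC correction (squares). Every symbol of Ndrg1 lies left of the line, and those of Slc16a1 scatter on both sides of it. The fit with a term for the replicate number, in which only Ndrg1 passed, is not drawn.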

How the data were processed

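Libraries were prepared from total RNA with the Illumina TruSeq RNA kit, per the labels' protocols. The authors deposited 1 table of raw counts, with a row for each Ensembl identifier and a column for each library, per the file headers. Named per the submitters' processing notes, with no role or order, were featureCounts 1.4.6-p4, Subread, cutadapt 1.9, FastQC 0.11.2, edgeR 3.18.1, mm10 and GRCm38. Whether counting used the strand, and how multiply aligned reads were handled, is not given in the sources used here. Symbols, positions and exon lengths came from GENCODE mouse release 21, which matched 46488 of 46983 identifiers.

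Genes with low counts were removed (filterByExpr, minimum count 10). The 16115 that remained were scaled with TMM and fitted in R 4.3.3 with the quasi-likelihood test of edgeR 4.0.16, genotype being the single term. P-values were adjusted by Benjamini-Hochberg over all of them, and an SE was obtained by dividing the size of the log2 fold change by the root of the F statistic. Log2 CPM had a prior count of 2. The fit was tested on simulated data. Replicates of a group differed by a chi-square per degree of freedom of 5.57 to 19.2, so none was a duplicate. Copies were sought with BLAST+ 2.17.0. Alternatives covered scaling, filters, each library left out, the replicate number, DESeq2 1.42.0, limma 3.58.1 and a smooth trend on length and GC content (mgcv 1.9.3). The genes named were all 43 members and up to 6 called genes of each further list, of which 1 is not reported here. Members and lists were chosen with earlier results of these data known.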

Additional observations from a re-analysis of the deposited data

How the results depend on the processing

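The count of members called (6, with 5 lower and 1 higher) stayed within 1.5 times of that under RLE, upper-quartile and no scaling, both filters, DESeq2, limma-voom and an adjusted p of 0.01. The 1 higher call became 0 with upper-quartile scaling, no filter or an adjusted p of 0.01, and 2 with no scaling factors. With DESeq2 the higher call was Vegfa in place of Slc16a1. With a trend on length and GC content removed (16056 genes had both values), 11 members were called, 9 lower and 2 higher, among 2324 genes, 995 higher and 1329 lower, against 1023, 533 and 490; the cause was not tested. At an adjusted p of 0.01, 393 genes were called.

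Deviations of same-numbered WT and AEG-1 KO libraries correlated at -0.274, -0.173 and -0.251, and those of differently numbered ones at 0.057 to 0.194. The deviations were taken from the mean of each group of 3, which ties these correlations to each other. They therefore cannot show whether same-numbered libraries shared an animal or a day. With the replicate block, 227 genes were called, 113 higher and 114 lower, and 1 member, Ndrg1, with 0 higher and 1 lower. The adjusted p was then 0.0582 for Hk2, 0.0795 for Egln3, 0.116 for Pfkfb3, 0.212 for Pfkp and 0.223 for Slc16a1.

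Leaving out 1 library gave 380 to 1093 called genes (184 to 519 higher, 196 to 574 lower) and 3 to 6 called members (0 to 1 higher, 3 to 6 lower). The count of all genes called moved by over 1.5 times without WT replicate 2 (441) or AEG-1 KO replicates 1, 2 or 3 (667, 380 and 606). Median log2 fold changes then ran from -0.1 to -0.03 for enzymes, 0.00 to 0.16 for transporters, 0.03 to 0.10 for PFKFB and PDK regulators, 0.06 to 0.10 for HIF factors and sensors, -0.04 to 0.02 for HIF targets and -0.02 to 0.00 for all members, and the Hk2 share of hexokinase differed by -3.97 to -3.01 percentage points. The median of the HIF factors and sensors (0.09) was 0.07 with no filter and 0.06 with the trend removed, and that of the regulators (0.06) was 0.04 with the trend removed. Among the 37 members not called, 11 had an estimate that changed sign in some fit, all between -0.13 and 0.17, and 5 were called in some fit. Depth limits Epas1, Ankrd37 and Adm most, at 53, 38 and 72 reads in WT replicate 1.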

Other observations

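The SD among WT libraries exceeded the difference of the group means in 19 of 43 members (44.2%), a share below the 49.1% of all genes tested, and in 11 of 17 enzymes (64.7%). In 7 members (Hk3, Pfkl, Eno1, Slc16a3, Epas1, Egln1 and Vegfa) the level was highest in WT replicate 1 and lowest in WT replicate 3, and highest in AEG-1 KO replicate 3 and lowest in AEG-1 KO replicate 1. These are 16.3% of the members, against 10.5% of all genes tested. Egln2, the third gene of the oxygen-sensor family and no member, named after its values were seen, had the same order, at 120.1, 99.1 and 77 CPM in WT and 74.3, 83.5 and 89.5 CPM in AEG-1 KO (edgeR adjusted p = 0.312). Its WT libraries spanned more than the distance between the group means.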
